A study of Mus musculus with 6 samples.

Results

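The collagen genes were examined in the prefrontal cortex (PFC) of WT mice, P301S Tau mice and P301S Tau mice given UNC0642. They were taken as every gene in the count files whose symbol has the form of a collagen chain, Col followed by a number, the letter a and a number, which gave 44 of 54429 genes. They were divided into 11 fibrillar genes, 6 basement membrane genes (the chains of collagen IV), 9 FACIT genes (fibril-associated collagens with interrupted triple helices) and 18 other genes. RNA of the PFC was sequenced in 6 libraries, 2 for each of 3 groups. The WT mice were the C57BL/6 x C3H controls and were given vehicle, which was saline with a little DMSO. The P301S Tau mice carried the PS19 transgene for human tau with the P301S mutation, which the mouse prion protein promoter drives, and were given the same vehicle. The third group, called UNC0642 here, consisted of P301S Tau mice that received 3 daily injections of 1 mg/kg UNC0642, an inhibitor of the histone methyltransferases EHMT1 and EHMT2. All mice were 6 months old by the labels, the study used both sexes, and no WT mice given UNC0642 were analysed here. With 2 mice in each group, the p-values rest on the spread between few libraries.

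Collagens are secreted proteins built of 3 chains wound into a triple helix. Fibrillar collagens form the fibres of connective tissue, collagen IV forms the sheet-like network of basement membranes, FACIT collagens sit on the surface of fibrils, and other members form beaded filaments (collagen VI), networks or transmembrane proteins. In the brain, the fibrillar chains are known mainly from fibroblasts of the meninges and vessel walls, Col4a1 and Col4a2 from endothelial cells and pericytes, and a few members, such as Col19a1 and Col25a1, from neurons.

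The sequences just before the start sites of 4 genes are shown because their levels were lower in P301S Tau than in WT mice and they come from different classes or positions in the genome. Each is the 250 bases before the RefSeq start on the strand of the gene (GRCm38.p6), and no annotated exon overlaps it. Col11a1 lies at chr3:114030290-114030539, Col5a1 at chr2:27886175-27886424, Col3a1 at chr1:45311288-45311537 and Col23a1 at chr11:51289670-51289919, all on the + strand. Capitals mark 3 motifs, each searched on both strands. The first is the GC box, spelled GGGCGG. The second is the CCAAT box, named by its letters. The third is the TATA box, spelled TATAAA.
Col11a1: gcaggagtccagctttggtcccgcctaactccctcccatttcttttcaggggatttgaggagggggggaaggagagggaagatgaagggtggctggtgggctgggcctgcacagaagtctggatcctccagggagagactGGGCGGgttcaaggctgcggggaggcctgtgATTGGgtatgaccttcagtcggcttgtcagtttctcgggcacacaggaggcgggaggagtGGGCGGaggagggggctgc
Col5a1: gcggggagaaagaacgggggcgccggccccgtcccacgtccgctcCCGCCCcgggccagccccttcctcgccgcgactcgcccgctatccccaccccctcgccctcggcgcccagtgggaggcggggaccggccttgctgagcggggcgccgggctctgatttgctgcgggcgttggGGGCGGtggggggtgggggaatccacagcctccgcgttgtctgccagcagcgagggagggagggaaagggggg
Col3a1: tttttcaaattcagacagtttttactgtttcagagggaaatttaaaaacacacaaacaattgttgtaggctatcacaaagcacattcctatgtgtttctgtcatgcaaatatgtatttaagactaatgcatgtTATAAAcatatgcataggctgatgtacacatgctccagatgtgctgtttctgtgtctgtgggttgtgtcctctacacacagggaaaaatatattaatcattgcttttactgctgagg
Col23a1: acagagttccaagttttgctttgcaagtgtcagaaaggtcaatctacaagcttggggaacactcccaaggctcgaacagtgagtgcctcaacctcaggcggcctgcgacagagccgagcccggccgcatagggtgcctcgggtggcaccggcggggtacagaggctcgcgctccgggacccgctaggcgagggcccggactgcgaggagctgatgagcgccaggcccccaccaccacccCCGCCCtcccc
Col11a1, Col5a1 and Col23a1 carried GC boxes, whereas Col3a1 carried a TATAAA stretch and no GC box. Over 38 windows of 35 collagen genes, 57.9% held GGGCGG, against 32.7% of 32851 windows of the same length over all genes. CCAAT was found in 34.2% of the collagen windows and 33.8% of all windows, and TATAAA in 13.2% and 12.4%. The median GC content was 59% in the collagen windows and 52.4% in all windows. These matches describe the letters in the windows only. Several collagen genes lie side by side. Col4a1 and Col4a2 start 21 bases apart on opposite strands of chromosome 8, and Col4a3 and Col4a4 start 72 bases apart on chromosome 1. Col4a5 and Col4a6 start 1309 bases apart on the X chromosome. Col3a1 and Col5a2 are neighbours on chromosome 1, as are Col6a1 and Col6a2 on chromosome 10.

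The counts summed to 17005664 to 28972176 per library. Where a pair of values is given for a group below, the first is replicate 1 and the second replicate 2. In the library labelled WT replicate 1, Prnp was at 1652 CPM (counts of a gene for every 1000000 counts of its library, with library totals scaled by the TMM method), against 873 in WT replicate 2 and 1470 to 1694 in the 4 libraries of transgenic mice. Prnp is the gene whose promoter drives the transgene. Whether transgene reads are counted as Prnp was not tested, so the label of this library is uncertain. The counts of calls against WT are given with and without this library. Mapt, the mouse tau gene, was at 576 CPM in that library, 449 in WT replicate 2 and 571 to 614 in the others. Xist, expressed in females, was at 191 to 317 CPM in WT replicate 2 and both P301S Tau libraries and at 0.118 to 0.197 CPM in the library labelled WT replicate 1 and both UNC0642 libraries. The Y-linked gene Ddx3y was at 95 to 101 CPM in the latter 3 libraries and at 0.115 to 0.644 CPM in the former. UNC0642 treatment and sex therefore cannot be told apart in the comparison of UNC0642 with P301S Tau. A fit with a term for the libraries that express Xist does not change this. That sex term rests on the 2 WT libraries, which also differ in Prnp, so it cannot separate sex from their other differences. Ehmt2 was at 131 to 161 CPM and Ehmt1 at 43.6 to 49 CPM, with overlapping groups. The cortical neuron markers Slc17a7 and Camk2a were high in every library (846 to 1016 and 955 to 1256 CPM). P301S Tau replicate 2 stood apart in oligodendrocyte and striatal markers: the summed levels of the 10 oligodendrocyte markers were 5806 CPM there and 1536 to 3099 CPM elsewhere, and those of 8 striatal neuron markers 253 CPM against 97.7 to 123 CPM.

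Of the 44 collagen genes, 43 had enough counts to be tested. Col6a5, a chain of collagen VI, had 2 to 10 counts per library and was not tested. Compared per length (CPM per kilobase of all annotated exons of a gene joined, mean of 6 libraries), 5 genes held 59.9% of the collagen total. They were Col6a1 at 10.5, the FACIT gene Col19a1 at 7.2, the transmembrane collagen gene Col25a1 at 6.42, and the basement membrane genes Col4a2 at 5.51 and Col4a1 at 5.14. The ranges over libraries of Col19a1 (6.31 to 8.51) and Col25a1 (5.09 to 7.23) overlapped, as did those of Col4a2 and Col4a1. The fibrillar genes were low: Col1a2, a chain of collagen I, led them at 1.32, followed by Col11a2 at 1.29 and Col5a1 at 1.14. By class, the other collagens held 41.7% of the total per length, the FACIT collagens 25.9%, the basement membrane collagens 20.3% and the fibrillar collagens 12.1%. The least expressed tested genes were Col4a3 at 0.0511 and Col4a4 at 0.0587, with 1 to 27 counts in a library.

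**Figure D1:**
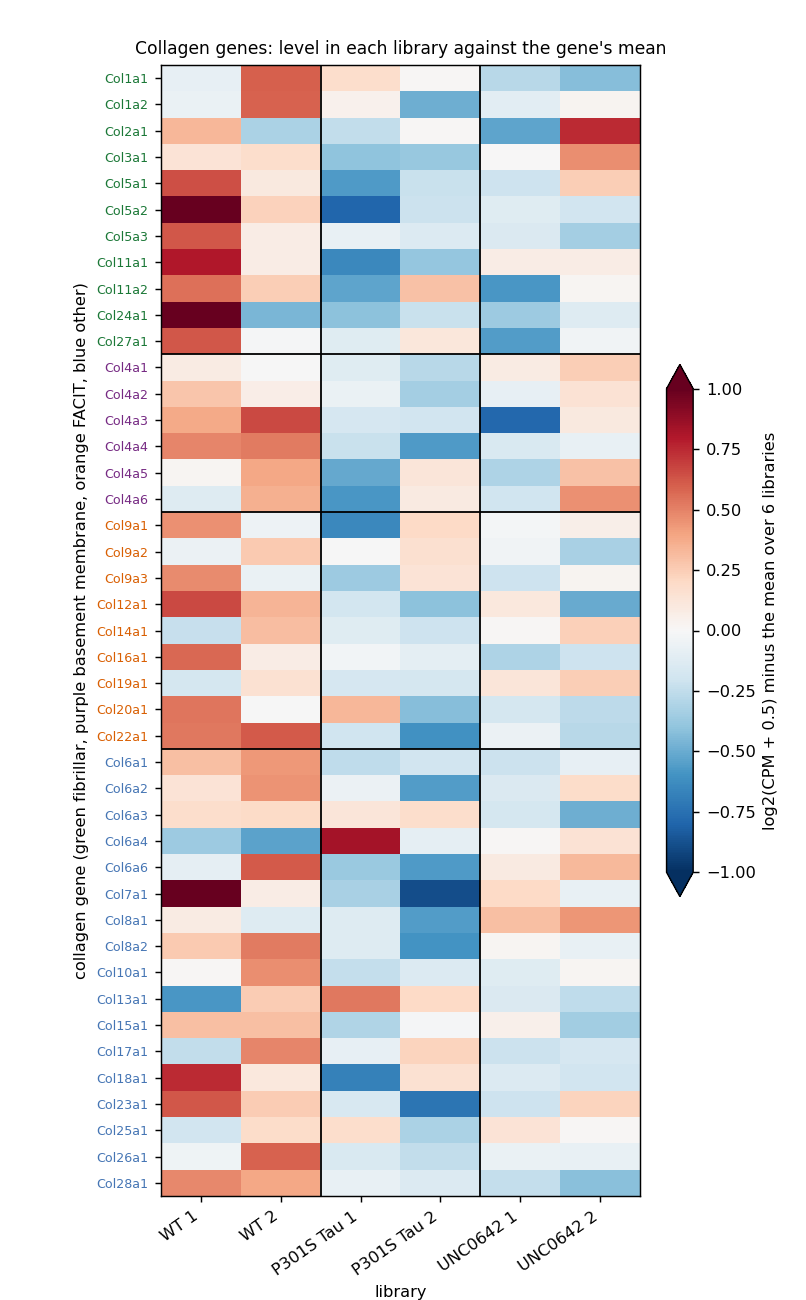
Level of each tested collagen gene in each library, as log2(CPM + 0.5) minus the mean of that gene over the 6 libraries, with red above and blue below the mean and the colour scale cut at -1 and 1. Rows are 43 genes ordered by class and columns are the 6 libraries; the 2 WT libraries held the highest value of the 6 for 17 and 18 genes, and the 2 P301S Tau libraries for 2 and 0.

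Collagen genes were on the whole lower in P301S Tau than in WT mice. Reads of the 44 genes made up 0.0525% of all counts in the library labelled WT replicate 1 and 0.0516% in WT replicate 2, 0.0389% and 0.036% in P301S Tau, and 0.042% and 0.0442% in UNC0642. The groups did not overlap in this share: both WT libraries were highest, both UNC0642 libraries intermediate and both P301S Tau libraries lowest. The share weighs abundant genes most, led by Col25a1, Col19a1 and Col6a1, of which Col25a1 and Col19a1 overlapped between P301S Tau and WT. The UNC0642 and P301S Tau libraries also differ in sex, as given above. A gene was called when edgeR's quasi-likelihood test gave an unadjusted p-value under 0.05 and the fold change was 1.2 or more, the threshold of the study. In P301S Tau against WT, 16 of the 43 tested collagen genes (37.2%) were called lower, against 6.10% of all 20409 genes tested. Only Col6a4 was called higher (2.3%), against 3.72% of all genes. The log2 fold change was below 0 for 41 of the 43, with a median of -0.54, whereas the median over all genes was 0. Both P301S Tau libraries were below both WT libraries for 23 collagen genes (53.5%) and above both for 1 (2.3%), against 21.4% and 21.9% of all genes. No collagen gene had a Benjamini-Hochberg adjusted p-value under 0.05 in edgeR, where 18 had an unadjusted p-value under 0.05; DESeq2 gave 3 (Col5a2, Col12a1 and Col6a1).

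Without the library labelled WT replicate 1, which leaves 3 libraries that all express Xist in this comparison, 12 collagen genes were called lower and 1 higher, 10 of them among the 17 above, and the median was -0.54. In that fit the lone WT library is assumed to vary like the other groups. Without WT replicate 2, 13 were called lower and 1 higher, and the median was -0.60. Without P301S Tau replicate 2, the library high in oligodendrocyte and striatal markers, 12 were called lower and 1 higher, and the median was -0.63. Col11a1, Col12a1, Col22a1, Col23a1, Col5a2 and Col6a1 were called lower whichever of the 6 libraries was left out.

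Some markers of cells that make collagen were called lower as well, but not all members of a list went the same way. Over all genes, 6.10% were called lower and 3.72% higher in this comparison. Of 17 tested markers of meningeal and perivascular fibroblasts, 6 (35.3%) were called lower in P301S Tau than in WT and none higher. Those called were Fmod, Islr, Slc6a13, Slc13a4, Slc6a20a and Crabp2. The summed level of the fibroblast markers overlapped, at 118 and 166 CPM in WT, 125 and 98.1 CPM in P301S Tau and 124 and 119 CPM in UNC0642. The widely used fibroblast markers Dcn and Lum were present in every library (6.98 to 9.14 and 1.26 to 2.22 CPM) and were not called. Most of the fibroblast calls were lost without WT replicate 2, where Islr stayed called. Most were also lost without P301S Tau replicate 2, where Fmod and Crabp2 stayed called. Of 14 endothelial markers, 6 (42.9%) were called lower, Cldn5 most clearly (log2 fold change -1.10 ± 0.17 SE, edgeR adjusted p = 0.0467), and Slc2a1 (7.1%) was called higher. The endothelial sum was 348 ± 3.29 CPM in WT, 294 ± 10.6 CPM in P301S Tau and 306 ± 50.5 CPM in UNC0642 (mean ± SD, n = 2). Of 12 pericyte and smooth muscle markers, 3 (25.0%) were called lower (Pdgfrb, Vtn and Notch3) and 1 (8.3%) higher (Abcc9). The 12 log2 fold changes were below 0 for 6 and above 0 for 6. The sums were 238 and 235 CPM in WT, 215 and 218 CPM in P301S Tau, and 200 and 194 CPM in UNC0642. Of 10 oligodendrocyte markers, 5 (50.0%) were called higher, and of 8 striatal neuron markers all 8 were, with a median log2 fold change of 0.87. Both P301S Tau libraries lay above both WT libraries for 4 of the striatal markers (50.0%) and for none of the oligodendrocyte markers. Of all genes, 21.9% did so. Of 10 astrocyte markers, 2 (20.0%) were called higher (Gfap and Gjb6), and of 10 microglia markers 2 (20.0%, Tmem119 and C1qa). Of 8 oligodendrocyte progenitor markers, 2 (25.0%) were called higher (Vcan and Gpr17). None in these lists was called lower, and no cortical neuron marker was called. Without P301S Tau replicate 2, 1 striatal marker (Tac1) and no oligodendrocyte marker was called. Without the library labelled WT replicate 1, 8 fibroblast, 5 endothelial and 3 pericyte and smooth muscle markers were called lower, and 10 oligodendrocyte and 5 striatal markers higher. Ttr, the defining marker of the choroid plexus epithelium, had no counts in 4 libraries and 6 and 24 in P301S Tau replicates 1 and 2. The list of these markers was mixed: of 5 tested, Aqp1 (20.0%) was called lower and Enpp2 (20.0%) higher. Without Enpp2, the list summed to 13.5 and 3.98 CPM in WT, 5.54 and 6.64 CPM in P301S Tau, and 4.2 and 5.91 CPM in UNC0642. The part of these cells in the collagen differences was not tested, and in bulk tissue fewer cells of a type and less RNA per cell cannot be told apart.

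**Figure D2:**
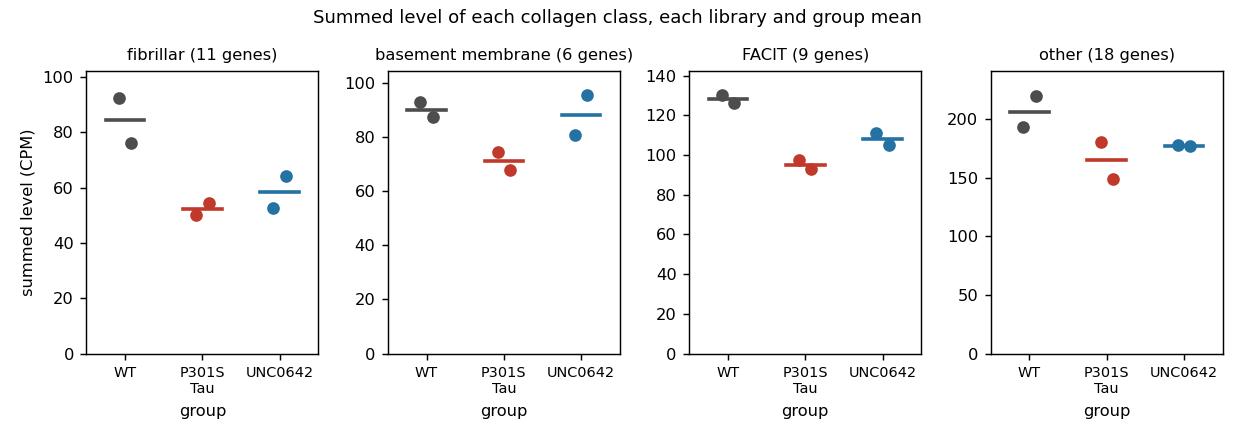
Summed level of the genes of each collagen class in each library (points, in CPM) with the group mean (lines), on axes that start at 0. In each class both P301S Tau libraries lie below both WT libraries, and the UNC0642 libraries overlap WT among basement membrane genes only.

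By class, the summed level of the fibrillar genes was 92.5 and 76.1 CPM in WT, 50.1 and 54.4 CPM in P301S Tau, and 52.6 and 64.2 CPM in UNC0642. The basement membrane sum was 92.9 and 87.3 CPM in WT, 74.6 and 68 CPM in P301S Tau, and 80.6 and 95.4 CPM in UNC0642. The FACIT sum was 130 and 126 CPM in WT, 97.3 and 92.8 CPM in P301S Tau, and 111 and 105 CPM in UNC0642. The other collagens summed to 193 and 220 CPM in WT, 181 and 149 CPM in P301S Tau, and 178 and 177 CPM in UNC0642. In every class P301S Tau did not overlap WT, and UNC0642 overlapped WT in the basement membrane class alone. The genes called lower in P301S Tau against WT were 5 of 11 fibrillar (45.5%), 2 of 6 basement membrane (33.3%), 3 of 9 FACIT (33.3%) and 6 of 17 other genes tested (35.3%). Of all genes, 6.10% were called lower. Differences between classes were not tested.

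**Figure D3:**
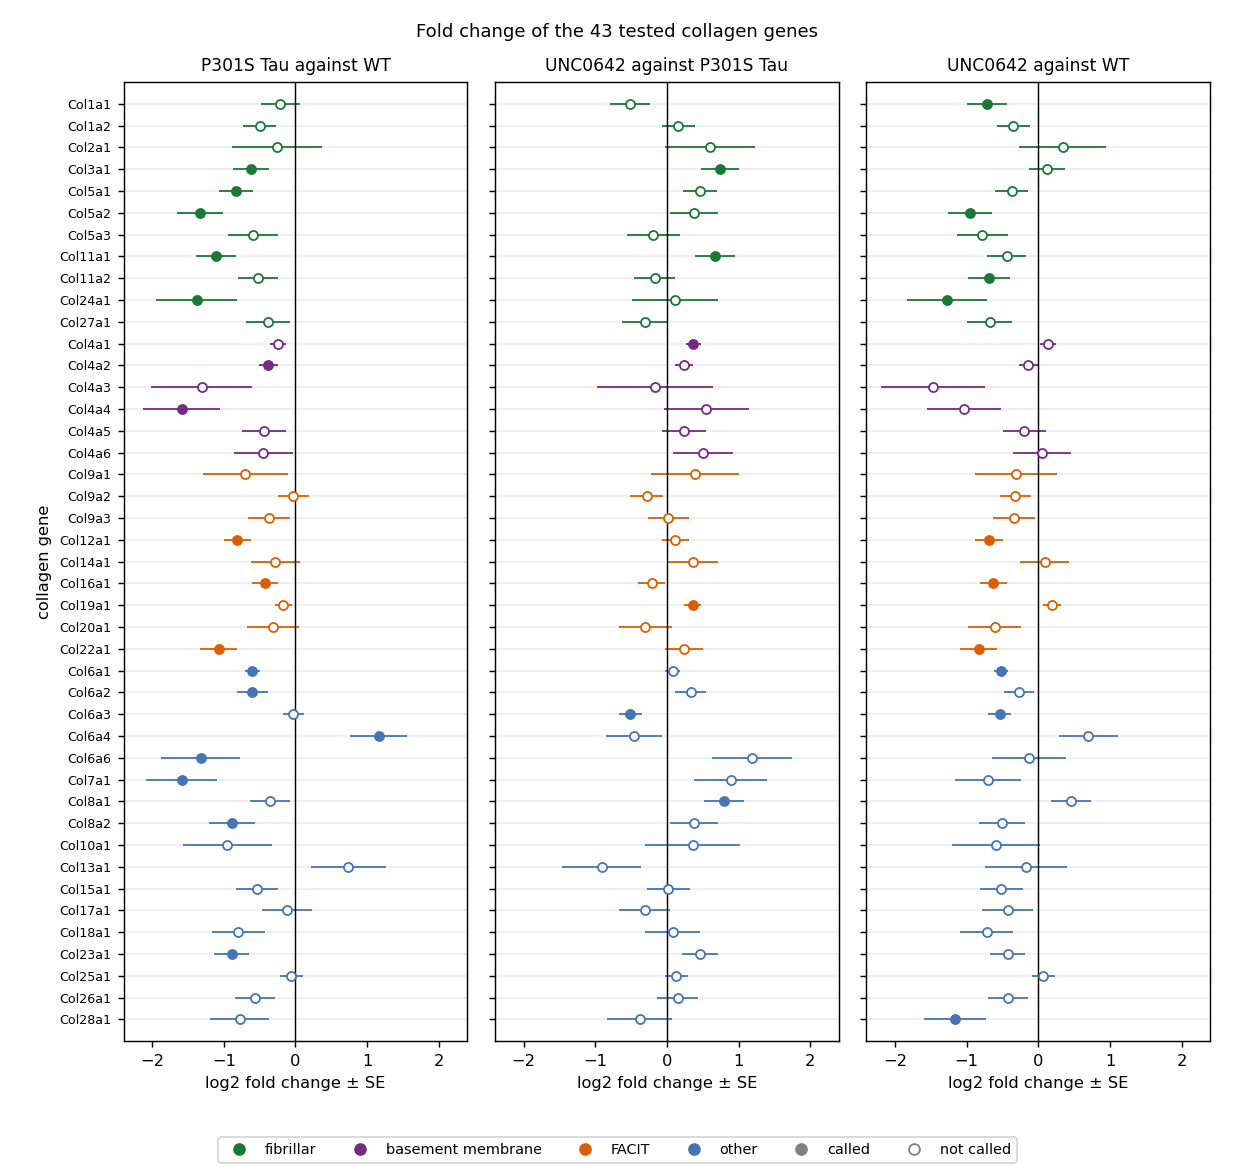
Log2 fold change with its standard error (edgeR) for the 43 tested collagen genes in P301S Tau against WT, UNC0642 against P301S Tau and UNC0642 against WT; filled points were called. Points lie left of 0 for 41, 13 and 34 genes, and the comparisons share libraries.

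Among the fibrillar genes, all 11 had log2 fold changes below 0 in P301S Tau against WT, from -1.38 to -0.21, with a median of -0.59. Col5a2, a chain of collagen V, the collagen that regulates the start of fibrils, was at 11.9 and 6.33 CPM in WT, 2.86 and 4.52 CPM in P301S Tau, and 4.85 and 4.59 CPM in UNC0642. It was 2.51-fold lower in P301S Tau than in WT (log2 fold change -1.33 ± 0.32 SE, adjusted p = 0.198, edgeR). Both P301S Tau and both UNC0642 libraries lay below both WT libraries. Col11a1, a chain of collagen XI, which forms the core of cartilage fibrils, was at 8.83 and 5.16 CPM in WT, 2.93 and 3.61 CPM in P301S Tau, and 5.15 and 5.16 CPM in UNC0642. It fell by 1.11 ± 0.28 SE on the log2 scale (adjusted p = 0.213, edgeR), with no overlap of P301S Tau and WT. Col5a1, the partner of Col5a2, was at 14.8 and 10 CPM in WT, 6.11 and 7.9 CPM in P301S Tau, and 7.99 and 11.1 CPM in UNC0642. It was 1.78-fold lower in P301S Tau than in WT (adjusted p = 0.257, edgeR), and this call was lost without the library labelled WT replicate 1 (log2 fold change -0.53).

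Col3a1, the single chain of collagen III, which accompanies collagen I in vessel walls, was at 4.38 and 4.53 CPM in WT, 2.86 and 2.92 CPM in P301S Tau, and 3.97 and 5.65 CPM in UNC0642. Replicates agreed closely in WT and P301S Tau, and the log2 fold change was -0.62 ± 0.25 SE (adjusted p = 0.371, edgeR). That call was lost when either WT or either P301S Tau library was left out, with log2 fold changes from -0.65 to -0.60 over all 6 fits. Col24a1, a fibrillar chain of developing bone and brain, was at 10.1 CPM in the library labelled WT replicate 1 and at 2.07 to 2.73 CPM in the other 5. Its calls against WT rest on that library: the log2 fold change in P301S Tau against WT was -1.38 with it and 0.16 without it, and the call was also lost without either P301S Tau library. Col1a2 and Col1a1, the chains of collagen I, were not called in P301S Tau against WT. Col1a2 was at 15.2 and 24.3 CPM in WT, 16.4 and 11.2 CPM in P301S Tau, and 14.8 and 16.3 CPM in UNC0642, so that WT replicate 2 stood above the rest. Col11a2, the partner of Col11a1, was at 12.7 and 10.2 CPM in WT and 5.76 and 10.5 CPM in P301S Tau, which overlapped. Col2a1, Col5a3 and Col27a1 were not called either, with log2 fold changes of -0.26, -0.59 and -0.38.

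**Figure D4:**
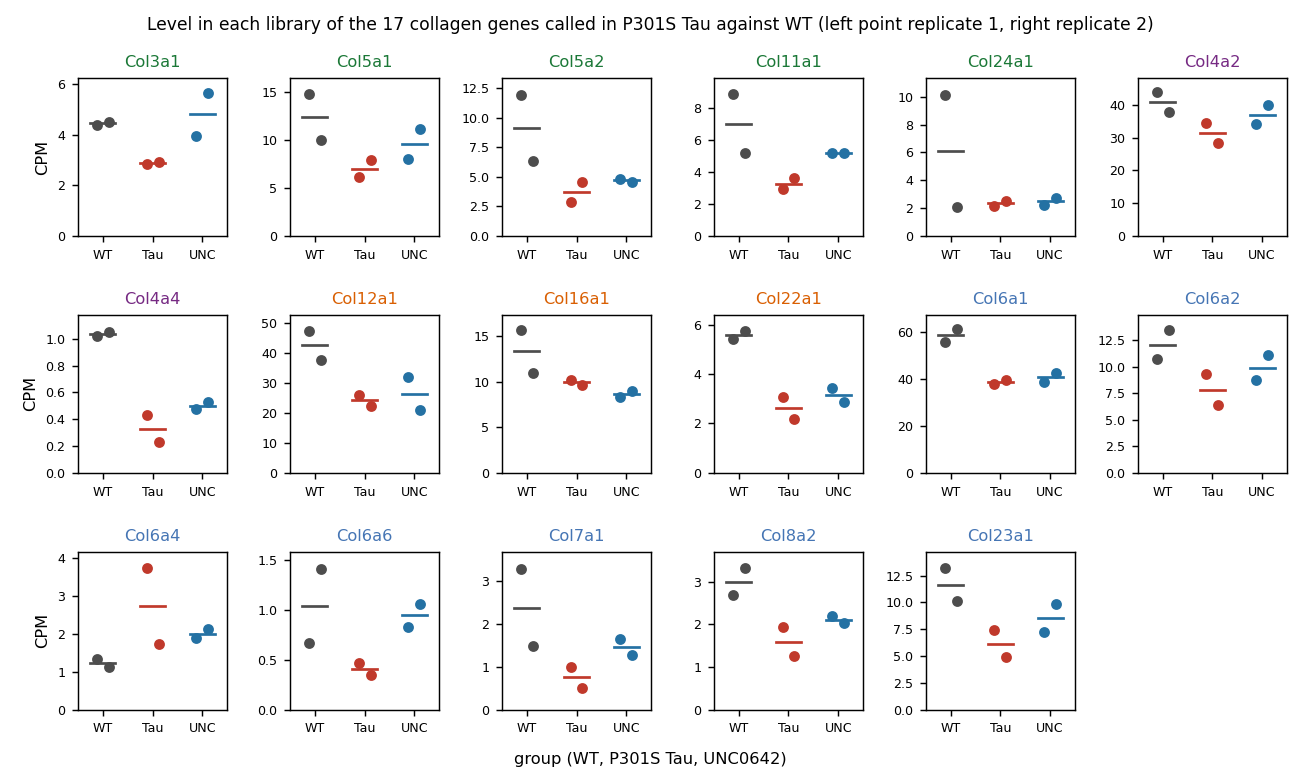
Level in each library (points, in CPM, replicate 1 left and replicate 2 right) and group mean (lines) for the 17 collagen genes called in P301S Tau against WT, on axes that start at 0 with gene names coloured by class as in the other plots. The P301S Tau points lie below both WT points for 15 of them, Col24a1 has a single high point in WT, and Col6a4 is higher in P301S Tau.

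The basement membrane genes all had log2 fold changes below 0 in P301S Tau against WT, with a median of -0.45. Col4a2, which with Col4a1 builds the collagen IV of vessel basement membranes, was at 43.9 and 37.9 CPM in WT, 34.4 and 28.5 CPM in P301S Tau, and 34.2 and 39.9 CPM in UNC0642. It was 1.3-fold lower in P301S Tau (log2 fold change -0.38 ± 0.13 SE, adjusted p = 0.316, edgeR), a call lost without the library labelled WT replicate 1 or without P301S Tau replicate 2. Col4a1 was at 40.4 and 38.1 CPM in WT, 35 and 31.3 CPM in P301S Tau, and 40.3 and 45.3 CPM in UNC0642. Its log2 fold change of -0.24 ± 0.11 SE (adjusted p = 0.4, edgeR) was under the fold threshold, although both P301S Tau libraries lay below both WT libraries. Col4a4, a chain of the collagen IV of kidney and inner ear, had 26 and 27 counts in WT, 12 and 4 in P301S Tau, and 8 and 12 in UNC0642. It was called lower in P301S Tau (log2 fold change -1.59 ± 0.54 SE, adjusted p = 0.312, edgeR), a call lost without either WT library and without P301S Tau replicate 2. Col4a3, its partner, had 19 and 26 counts in WT and 10 and 6 in P301S Tau, without overlap, and was not called (adjusted p = 0.481, edgeR). Col4a5 was at 4.89 and 6.44 CPM in WT, 3.22 and 5.27 CPM in P301S Tau, and 3.79 and 6 CPM in UNC0642, and Col4a6 at 1.89 and 2.85 CPM in WT and 1.25 and 2.29 CPM in P301S Tau. Both of these X-linked genes overlapped between the groups.

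Among the FACIT genes, 3 of 9 were called lower in P301S Tau and all 9 had log2 fold changes below 0, with a median of -0.37. Col12a1, a large FACIT chain bound to collagen I fibrils, was at 47.4 and 37.7 CPM in WT, 26.1 and 22.2 CPM in P301S Tau, and 32 and 20.8 CPM in UNC0642. It was 1.76-fold lower in P301S Tau (log2 fold change -0.81 ± 0.19 SE, adjusted p = 0.187, edgeR), and the libraries of both transgenic groups lay below both WT libraries. Col22a1, known from tissue junctions, was at 5.4 and 5.74 CPM in WT, 3.07 and 2.18 CPM in P301S Tau, and 3.43 and 2.87 CPM in UNC0642. It was 2.09-fold lower in P301S Tau (log2 fold change -1.07 ± 0.26 SE, adjusted p = 0.207, edgeR), with the same separation from WT. Col16a1 was at 15.7 and 11 CPM in WT, 10.2 and 9.68 CPM in P301S Tau, and 8.29 and 8.95 CPM in UNC0642. Its log2 fold change was -0.42 ± 0.18 SE (adjusted p = 0.394, edgeR), and -0.14 without the library labelled WT replicate 1; it was called in 1 of the 6 fits that left out a library. Col19a1, the most abundant FACIT gene and one known from cortical neurons, was at 43.5 and 54.8 CPM in WT, 43.9 and 43.5 CPM in P301S Tau, and 53.5 and 58.6 CPM in UNC0642. It was not called against WT. The chains of collagen IX (Col9a1, Col9a2 and Col9a3), Col14a1 and Col20a1 had log2 fold changes from -0.70 to -0.03 and were not called.

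Of the other collagens, the collagen VI genes gave the clearest difference and went in different directions. Col6a1, the most abundant collagen gene per length (chr10:76708792-76726168, - strand, GENCODE M21), was at 55.9 and 61.1 CPM in WT, 37.9 and 39.6 CPM in P301S Tau, and 38.8 and 42.7 CPM in UNC0642. It had the smallest p-value of the collagen genes and was 1.51-fold lower in P301S Tau than in WT (log2 fold change -0.60 ± 0.10 SE, adjusted p = 0.0577, edgeR). Every library of both transgenic groups lay below both WT libraries, and the log2 fold change kept within -0.66 to -0.53 when each library was left out in turn. Col6a2, the second chain, was at 10.7 and 13.4 CPM in WT, 9.26 and 6.41 CPM in P301S Tau, and 8.7 and 11.1 CPM in UNC0642. It was 1.52-fold lower in P301S Tau (adjusted p = 0.321, edgeR). Col6a3, the third chain, had 12.5 and 12.6 CPM in WT, 12 and 12.5 CPM in P301S Tau, and 9.65 and 7.68 CPM in UNC0642. Its level in P301S Tau overlapped that in WT (log2 fold change -0.03 ± 0.15 SE), and it was low in the UNC0642 libraries alone.

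Col6a4 was at 1.34 and 1.13 CPM in WT, 3.72 and 1.72 CPM in P301S Tau, and 1.89 and 2.12 CPM in UNC0642. It was the one collagen gene called higher in P301S Tau (log2 fold change 1.16 ± 0.40 SE, adjusted p = 0.315, edgeR), and the call was lost without P301S Tau replicate 1, which held the highest value, and without WT replicate 2. Its cluster neighbour Col6a6 had 17 and 36 counts in WT, 13 and 6 in P301S Tau, and 14 and 24 in UNC0642, and was called lower (log2 fold change -1.32 ± 0.55 SE, adjusted p = 0.376, edgeR). Col23a1, a transmembrane collagen, was at 13.2 and 10.1 CPM in WT, 7.47 and 4.87 CPM in P301S Tau, and 7.22 and 9.88 CPM in UNC0642. It was 1.86-fold lower in P301S Tau than in WT (adjusted p = 0.244, edgeR), with no overlap. Col7a1, the anchoring fibril collagen of skin, had 83 and 38 counts in WT, 28 and 9 in P301S Tau, and 28 and 29 in UNC0642, and was called lower in P301S Tau (adjusted p = 0.279, edgeR), but not without the library labelled WT replicate 1 (log2 fold change -0.92). Col8a2, a network-forming chain of vessels and cornea, was at 2.68 and 3.32 CPM in WT, 1.93 and 1.26 CPM in P301S Tau, and 2.19 and 2.03 CPM in UNC0642, and was 1.85-fold lower in P301S Tau (adjusted p = 0.336, edgeR). Col25a1, the neuronal collagen whose shed part binds amyloid plaques, was at 72.3 and 93.6 CPM in WT, 92.9 and 66 CPM in P301S Tau, and 90.8 and 83.1 CPM in UNC0642. All 3 groups overlapped. The calls of Col6a2 and Col8a2 were lost without WT replicate 2 or P301S Tau replicate 2, and that of Col6a6 without WT replicate 2 or either P301S Tau library. Among the remaining other collagens, Col10a1, Col13a1, Col15a1, Col17a1, Col18a1, Col26a1, Col8a1 and Col28a1 were not called in P301S Tau against WT, with log2 fold changes from -0.95 to 0.74.

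**Figure D5:**
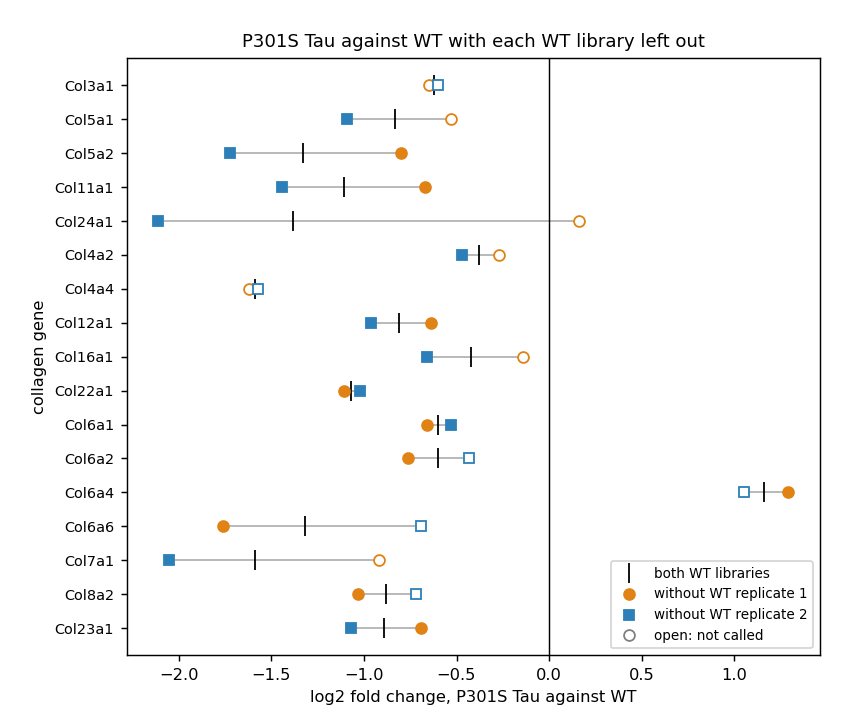
Log2 fold change in P301S Tau against WT for the 17 called collagen genes with both WT libraries (bars), without the library labelled WT replicate 1 (circles) and without WT replicate 2 (squares), with open symbols where the gene was no longer called. Col24a1 moves from -2.11 to 0.16, whereas Col6a1 and Col22a1 hardly move.

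The replicates were farther apart in WT than in the other groups. Their values were at least 1.5-fold apart for 20 of 43 tested collagen genes in WT, 12 in P301S Tau and 7 in UNC0642. The fibrillar genes Col5a2, Col11a1 and Col24a1 were highest in the library labelled WT replicate 1, and Col1a1 and Col1a2 in WT replicate 2. The library labelled WT replicate 1 also held 9.93 CPM of Aqp1, against 0.265 to 0.71 CPM in the other libraries. Aqp1 is a water channel gene and a listed marker of the choroid plexus epithelium. Whether this bears on its collagen values was not tested.

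UNC0642 against P301S Tau compares transgenic mice given the inhibitor with those given vehicle. Xist was at 191 and 235 CPM in P301S Tau and at 0.118 and 0.176 CPM in UNC0642. Differences in this comparison therefore cannot be assigned to the inhibitor rather than to sex. Collagen genes were called higher in 5 of 43 cases (11.6%), against 3.73% of all genes, and lower in 1 (2.3%), against 3.95%. The log2 fold change was above 0 for 30 genes, with a median of 0.16. Both UNC0642 libraries were above both P301S Tau libraries for 14 genes (32.6%) and below both for 8 (18.6%), against 20.4% and 20.9% of all genes. The smallest adjusted p-value was 0.418 in edgeR, with 6 unadjusted p-values under 0.05, and DESeq2 gave no adjusted p-value under 0.05. Without UNC0642 replicate 2, none of the 6 calls remained, and Col12a1 was the single collagen gene called. With a term for the libraries that express Xist, 5 genes were called, of which Col19a1 alone was among the 6, and the median was 0.07. The fibrillar median went from 0.16 to -0.40 and the FACIT median from 0.12 to -0.22 with that term. Col24a1, which was high in the library labelled WT replicate 1 alone, was among the genes called with it. The term rests on the 2 WT libraries, which differ in more than Xist, so these values do not isolate the effect of the inhibitor.

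The values of the genes called in this comparison are as follows. Col3a1, at 2.86 and 2.92 CPM in P301S Tau and 3.97 and 5.65 CPM in UNC0642, was 1.67-fold higher in UNC0642 (log2 fold change 0.74 ± 0.26 SE, adjusted p = 0.467, edgeR). Col11a1 was 1.59-fold higher (adjusted p = 0.547, edgeR), and its UNC0642 libraries overlapped the WT range at their lower end. These were the 2 collagen genes called lower in P301S Tau against WT and higher in UNC0642 against P301S Tau, 2 comparisons that share the P301S Tau libraries. Col4a1 was 1.29-fold higher in UNC0642 than in P301S Tau (log2 fold change 0.37 ± 0.11 SE, adjusted p = 0.418, edgeR), without overlap. Col19a1 was 1.28-fold higher (log2 fold change 0.36 ± 0.12 SE, adjusted p = 0.444, edgeR), also without overlap.

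Col8a1, the partner chain of Col8a2 in collagen VIII, was at 3.23 and 2.73 CPM in WT, 2.72 and 1.89 CPM in P301S Tau, and 3.85 and 4.28 CPM in UNC0642. It was 1.74-fold higher in UNC0642 than in P301S Tau (adjusted p = 0.477, edgeR), and both UNC0642 libraries lay above all 4 others. Col6a3 fell by 0.51 ± 0.16 SE on the log2 scale in UNC0642 against P301S Tau (adjusted p = 0.432, edgeR), and both UNC0642 libraries lay below the other 4. Beside these genes, 1 of 17 fibroblast markers (Fmod, 5.9%) and 1 of 14 endothelial markers (Cldn5, 7.1%) were called higher, against 3.73% of all genes. Of 12 pericyte and smooth muscle markers, 3 were called lower (Acta2, Myh11 and Abcc9) and Notch3 higher. Also called lower were 3 of 10 oligodendrocyte, 3 of 8 oligodendrocyte progenitor and 7 of 8 striatal markers, against 3.95% of all genes. Without P301S Tau replicate 2 these were 0, 2 and 1. The part of these in the collagen values was not tested.

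UNC0642 against WT gives the level of the collagen genes in treated transgenic mice relative to controls. Of the 43 tested genes, 10 (23.3%) were called lower, against 5.69% of all genes, and 0 higher, against 3.77%. The median log2 fold change was -0.43, and -0.012 over all genes. Both UNC0642 libraries were below both WT libraries for 19 genes (44.2%) and above both for 2 (4.7%), against 22.3% and 22.1% of all genes. No adjusted p-value was under 0.05 in edgeR, while 10 unadjusted ones were, and DESeq2 gave 2 (Col12a1 and Col6a1). There were 6 genes called lower here and in P301S Tau against WT, 2 comparisons that share the WT libraries: Col5a2, Col24a1, Col12a1, Col16a1, Col22a1 and Col6a1. Of 14 endothelial markers, 6 were called lower beside them (Cldn5, Slco1a4, Itm2a, Tek, Kdr and Egfl7) and Slc2a1 higher, and 4 were called lower without the library labelled WT replicate 1. Of 17 fibroblast markers, 2 were called lower (Islr and Serpinf1), and 5 of the 18 that could be tested without that library. Myh11 and Vtn were called lower and Kcnj8 higher of 12 pericyte and smooth muscle markers. The part of these in the collagen values was not tested.

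Col6a1 was 1.43-fold lower in UNC0642 than in WT (log2 fold change -0.52 ± 0.10 SE, adjusted p = 0.0741, edgeR), and Col12a1 1.62-fold lower (log2 fold change -0.69 ± 0.19 SE, adjusted p = 0.206, edgeR). These were the genes called in each of the fits that left out 1 library. Col1a1, Col11a2, Col6a3 and Col28a1 were called lower in UNC0642 against WT and not in P301S Tau against WT; whether the fold changes differ was tested only by UNC0642 against P301S Tau, where Col6a3 was called. Col1a1 was at 4.26 and 7.15 CPM in WT, 5.22 and 4.58 CPM in P301S Tau, and 3.67 and 3.26 CPM in UNC0642, where both libraries were below all others (log2 fold change against WT -0.72 ± 0.28 SE, adjusted p = 0.342, edgeR). Col28a1 had 38 and 35 counts in WT, 24 and 14 in P301S Tau, and 12 and 13 in UNC0642 (log2 fold change against WT -1.16 ± 0.43 SE, adjusted p = 0.321, edgeR). Col11a2 was at 5.51 and 8.6 CPM in UNC0642 and was 1.61-fold lower than in WT (adjusted p = 0.378, edgeR). No basement membrane gene was called, and Col4a1 and Col4a2 had log2 fold changes of 0.13 and -0.14 with overlapping libraries. Without UNC0642 replicate 2, the calls of Col1a1, Col5a2, Col22a1, Col24a1, Col28a1 and Col6a3 were lost, and without UNC0642 replicate 1 those of Col11a2 and Col24a1. Without WT replicate 2, which leaves 3 libraries that do not express Xist in this comparison, 15 were called lower and 1 higher. Without the library labelled WT replicate 1, 8 were called lower and 0 higher, 5 of them among the 10 (Col1a1, Col12a1, Col22a1, Col6a1 and Col6a3).

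The ratios between chains that share a triple helix or a collagen type were compared for 11 pairs, of which 5 did not overlap between WT and P301S Tau and 6 did. Such separation was common: over all genes, both P301S Tau libraries were below both WT libraries for 21.4% and above both for 21.9%. The number of separated pairs is therefore not read as a result. Per length, Col4a1 stood at 0.816 and 0.891 of Col4a2 in WT, 0.902 and 0.974 in P301S Tau, and 1.04 and 1.01 in UNC0642. This ratio did not overlap between any of the groups. Col6a3 stood at 0.0815 and 0.0754 of Col6a1 in WT, 0.116 in both P301S Tau libraries, and 0.0911 and 0.0657 in UNC0642, so that P301S Tau was highest. Col6a2 stood at 0.0851 to 0.137 of Col6a1 in all libraries, with overlapping groups. Both partners of Col6a1 were thus far below it per length in every library, with lengths of 4380 bases for Col6a1, 8326 for Col6a2 and 11963 for Col6a3. The ratio of Col8a1 to Col8a2 was 0.691 and 0.472 in WT, 0.807 and 0.86 in P301S Tau, and 1.01 and 1.21 in UNC0642. Col1a1 stood at 0.53 and 0.556 of Col1a2 in WT, 0.601 and 0.773 in P301S Tau, and 0.47 and 0.38 in UNC0642. Col5a1 stood at 1.4 and 1.79 times Col5a2 in WT and at 2.41 and 1.97 times in P301S Tau. Beside Col6a2 to Col6a1, the overlapping pairs were Col4a5 to Col4a6 (2.31 to 3.07 in all libraries), Col4a3 to Col4a4, Col11a1 to Col11a2, and Col9a1 and Col9a3 to Col9a2. These ratios are descriptions, with 2 libraries a group.

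A list of 44 genes that make, process and bind collagen was examined next. Of 42 tested, 4 (9.5%) were called lower and 1 (2.4%) higher in P301S Tau against WT, against 6.10% and 3.72% of all genes, with a median log2 fold change of -0.20. In UNC0642 against P301S Tau, 2 (4.8%) were called lower and 1 (2.4%) higher, against 3.95% and 3.73%. In UNC0642 against WT, 5 (11.9%) were called lower and 2 (4.8%) higher, against 5.69% and 3.77%. Most of these shares were thus near those of all genes. Without the library labelled WT replicate 1, 4 were called lower and 2 higher in P301S Tau against WT, 3 of them among the 5, and 4 lower and 2 higher in UNC0642 against WT, 4 of them among the 7. Gp6 had no counts in any library, and Adamts14 was too low to test. P4ha1, a subunit of the prolyl hydroxylase that stabilizes the triple helix, was higher in both transgenic groups. It was at 53.9 and 61.3 CPM in WT, 84.5 and 94.1 CPM in P301S Tau, and 104 and 105 CPM in UNC0642, with no overlap between the groups. Its log2 fold change was 0.63 ± 0.09 SE in P301S Tau against WT (adjusted p = 0.0416, edgeR) and 0.86 ± 0.09 SE in UNC0642 against WT (adjusted p = 0.00587, edgeR). P4ha2, a related subunit, was at 9.58 and 9.8 CPM in WT, 12.7 and 11.6 CPM in P301S Tau, and 12.1 and 14 CPM in UNC0642, and was called higher in UNC0642 against WT (adjusted p = 0.292, edgeR), a call lost without UNC0642 replicate 2.

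Among the genes of folding and cross-linking, Fkbp10, a chaperone of collagen I, was at 4.77 and 4.3 CPM in WT, 2.86 in both P301S Tau libraries, and 3.49 and 3.04 CPM in UNC0642, and was called lower in P301S Tau (log2 fold change -0.66 ± 0.24 SE, adjusted p = 0.339, edgeR). Plod2, a lysyl hydroxylase, was at 11.6 and 7.93 CPM in WT, 6.36 and 7.79 CPM in P301S Tau, and 7.22 and 6.93 CPM in UNC0642, and was also called lower in P301S Tau, with a log2 fold change of -0.47 ± 0.21 SE (adjusted p = 0.403, edgeR). The call of Fkbp10 was lost without the library labelled WT replicate 1, without either P301S Tau library and in DESeq2. That of Plod2 was lost in the same fits but the one without P301S Tau replicate 2, and also without either UNC0642 library, with the replicate block and with only the 2 groups fitted. Bmp1, the protease that removes the propeptide of fibrillar collagens, was at 25.3 and 29.3 CPM in WT, 21.4 and 15.2 CPM in P301S Tau, and 21.3 and 20.6 CPM in UNC0642. It was called lower in both transgenic groups against WT (log2 fold changes of -0.57 and -0.38); the call in UNC0642 was lost without WT replicate 2 or either UNC0642 library. Tll1, a protease related to Bmp1, Adamts3 and the cross-linking enzyme Loxl1 were called lower in UNC0642 against WT, and Tll1 was highest in the library labelled WT replicate 1 (5.32 CPM, against 1.19 to 2.46 CPM). Adamts3, a propeptide protease, was at 14.1 and 14.2 CPM in WT and 11.5 and 11 CPM in UNC0642, and Loxl1 at 1.81 and 1.95 CPM in WT and 0.947 and 0.97 CPM in UNC0642. The calls of Tll1 and Adamts3 were lost without the library labelled WT replicate 1 or UNC0642 replicate 2, that of Adamts3 also without WT replicate 2 or UNC0642 replicate 1, and that of Loxl1 without WT replicate 2 or either UNC0642 library. Sparc, a collagen-binding matrix protein, was at 90.2 and 70.4 CPM in WT, 92.4 and 99.8 CPM in P301S Tau, and 77.6 and 76.6 CPM in UNC0642, and was called lower in UNC0642 against P301S Tau, a call lost without P301S Tau replicate 2 or either UNC0642 library.

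Of 9 tested collagen receptors, Mrc2, which takes up collagen for breakdown, was called lower in P301S Tau against WT, at 5.99 and 8.87 CPM in WT, 5.33 and 3.44 CPM in P301S Tau, and 5.57 and 4.59 CPM in UNC0642 (adjusted p = 0.335, edgeR), a call lost without WT replicate 2 or P301S Tau replicate 2. Itga11, the collagen I receptor subunit of fibroblasts, was at 3.39 and 2.34 CPM in WT, 1.86 and 1.95 CPM in P301S Tau, and 3.43 and 4.28 CPM in UNC0642. It was called higher in UNC0642 against P301S Tau (log2 fold change 1.02 ± 0.30 SE, adjusted p = 0.419, edgeR), a call lost with the term for libraries that express Xist. Ddr1, a receptor tyrosine kinase for collagen, was at 25.2 and 25.9 CPM in UNC0642 and 28.6 to 34.4 CPM in the other 4 libraries, and was called lower in UNC0642 against both groups (log2 fold changes of -0.33 and -0.28). Its call against P301S Tau was lost without P301S Tau replicate 2 or either UNC0642 library, and that against WT without the library labelled WT replicate 1 or either UNC0642 library, with the replicate block and in DESeq2.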

How the data were processed

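RNA-seq of PFC tissue was analysed in 6 libraries of 3 groups. The authors made strand-specific libraries after ribosomal RNA depletion, trimmed reads with Cutadapt, aligned them with TopHat2, as stated to RefSeq mRNAs, and counted them with featureCounts; the processing notes name mm10. The deposited values are raw counts per gene, not normalized. In 2 files, 26 gene names had become dates, none of a collagen.

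Counts were analysed with edgeR 4.0.16 in R 4.3.3. filterByExpr (minimum count 10, minimum total 15) kept 20409 genes, TMM factors were 0.966 to 1.04, and 1 quasi-likelihood fit held the 3 group means (3 residual degrees of freedom, biological coefficient of variation 12.3%). Standard errors are the log2 fold change divided by the root of its F, and adjusted p-values are Benjamini-Hochberg values across the 20409 genes. In simulated counts for P301S Tau against WT (20409 genes), 99% of 200 genes changed 3-fold were called, as were 4.33% of unchanged genes. The changed genes were drawn only from genes with higher counts. The 99% therefore does not apply to smaller changes or to genes with few counts. A floor of 3 counts is 0.104 to 0.176 CPM. Exon lengths and coordinates come from GENCODE M21 (GRCm38), upstream sequences from RefSeq. An exon length joins the exons of all annotated isoforms, so levels per length and ratios between genes depend on which isoforms are annotated.

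The collagen genes, classes and lists were chosen with earlier results of these data known. Each library's value is given for collagen genes called in at least 1 comparison and the 3 of each class with the highest level. Called pathway genes and label checks are given by library or as ranges, some of them for part of the groups. Listed markers are given mainly as calls and summed levels. Other single values were chosen after they were seen. Alternatives were other scalings and filters, DESeq2 1.42.0, fits of 2 groups, a replicate block, other thresholds and fits without each library; a term for Xist and all alternatives for the pathway and marker genes were added after seeing the data.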

Additional observations from a re-analysis of the deposited data

How the results depend on the processing

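The median log2 fold change over the tested collagen genes stayed below 0 in P301S Tau against WT and in UNC0642 against WT. It stayed above 0 in UNC0642 against P301S Tau. This held under every alternative for which the median was computed, which leaves out DESeq2 and the fits of only 2 groups. No paired analysis was meaningful, because same-numbered libraries come from different mice and their deviations did not correlate (r = -0.05, -0.03 and -0.01); the replicate block gave 14, 7 and 9 calls, against 17, 6 and 10 in P301S Tau against WT, UNC0642 against P301S Tau and UNC0642 against WT, in that order below. Adjusted p-values under 0.05 left 0, 0 and 0 collagen calls in edgeR, and 1, 0 and 1 of 5, 3 and 7 pathway calls. A fold change of at least 1.5 left 3 collagen calls in UNC0642 against P301S Tau and 3, 1 and 3 pathway calls. Without a filter, calls rose to 10 in UNC0642 against P301S Tau and to 17 in UNC0642 against WT, and the pathway calls in the former to 5. The DESeq2 Wald test gave 3 pathway calls in P301S Tau against WT and 4 in UNC0642 against WT. The P301S Tau against WT median was -0.61 with library size alone and -0.50 with at least 10 counts in every library, against -0.54. The cause of these changes was not tested.

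Leaving out each library in turn gave 13 to 17, 1 to 8 and 7 to 16 collagen calls, 4 to 7, 2 to 7 and 4 to 8 pathway calls, and medians of -0.63 to -0.54, 0.12 to 0.24 and -0.47 to -0.39. The fibrillar median ranged from -0.69 to -0.53, -0.04 to 0.30 and -0.78 to -0.29, turning to -0.04 without UNC0642 replicate 2. The basement membrane median ranged from -0.86 to -0.38, 0.08 to 0.55 and -0.50 to 0.02, the FACIT median from -0.64 to -0.27, 0.03 to 0.24 and -0.64 to -0.26, and that of the other collagens from -0.66 to -0.47, 0.10 to 0.22 and -0.55 to -0.11. The log2 fold change of Col24a1 ranged from -2.11 to 0.16 in P301S Tau against WT and from -2.0 to 0.27 in UNC0642 against WT, with the values above 0 without the library labelled WT replicate 1. With the Xist term, UNC0642 against WT gave 17 collagen calls and UNC0642 against P301S Tau 5 pathway calls. Its median in UNC0642 against P301S Tau was 0.07 over all collagen genes, -0.40 for fibrillar, -0.22 for FACIT and 0.50 for other genes; it was -0.67 for basement membrane genes in P301S Tau against WT, and -0.64 for FACIT and -0.11 for other genes in UNC0642 against WT. That term rests on the 2 WT libraries, which also differ in Prnp, so it does not isolate sex.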
